A study of Mus musculus with 28 samples.

Results

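The genes described here are Acod1, the itaconate-forming enzyme of macrophages, and 8 genes of the tricarboxylic acid (TCA) cycle and its isocitrate dehydrogenases: Idh1, Idh2, Idh3a, Suclg2, Sdha, Sdhb, Fh1 and Mdh2. They were taken by name, as the enzyme of itaconate synthesis and enzymes of the cycle from isocitrate to oxaloacetate, and are 9 of the 54532 genes in the count table. The choice was made with earlier results of these data known, so counts and medians over the 9 are descriptions. All 9 were found in it and all 9 had reads in every group. RNA was sequenced from 28 cultures of murine bone marrow-derived macrophages (BMDM), grown from the marrow of C57/B6JB mice with macrophage colony-stimulating factor and then given fresh medium with calcium chloride. The groups at 3.5 h were 5 cultures with PBS (control), 5 with plasma-derived von Willebrand factor (pd-VWF) at 10 µg/ml and 4 with bacterial lipopolysaccharide (LPS) at 100 ng/ml, and the same numbers were sequenced after 16 h. The cultures are numbered as biological replicates, but what a number stands for is not given, so the p values measure the spread between these cultures. The comparisons ask how each agonist changes these metabolic genes, and whether the change lasts from 3.5 h to 16 h.

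The TCA cycle turns citrate through isocitrate, α-ketoglutarate, succinyl-CoA, succinate, fumarate and malate back to oxaloacetate, and feeds electrons to the respiratory chain. In macrophages activated through Toll-like receptors, Acod1 takes cis-aconitate out of the cycle to make itaconate, an inhibitor of succinate dehydrogenase (SDH). The step from isocitrate to α-ketoglutarate and the SDH step are the places usually named as breaks of the cycle in these cells. Idh1 and Idh2 encode NADP-dependent isocitrate dehydrogenases of the cytosol and the mitochondria, and Idh3a the catalytic subunit of the NAD-dependent enzyme. Suclg2 encodes the GTP-forming β subunit of succinyl-CoA ligase, Sdha and Sdhb the flavoprotein and iron-sulfur subunits of SDH, Fh1 fumarase and Mdh2 the mitochondrial malate dehydrogenase.

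Upstream sequences of 4 genes are printed because these genes carry the patterns below: Acod1 rose with both agonists, Idh2 and Fh1 fell with LPS at 16 h, and Sdhb rose with VWF at 16 h. Each is the part of the 250 bases before the RefSeq start (GRCm38.p6) that lies outside annotated exons, written 5′ to 3′ on the gene's strand. Capitals mark matches to GGANNTTCC, a κB-like motif, and AANNGAAA, an interferon regulatory factor (IRF) motif, searched on both strands.
Acod1, chr14:103046762-103046976, plus strand: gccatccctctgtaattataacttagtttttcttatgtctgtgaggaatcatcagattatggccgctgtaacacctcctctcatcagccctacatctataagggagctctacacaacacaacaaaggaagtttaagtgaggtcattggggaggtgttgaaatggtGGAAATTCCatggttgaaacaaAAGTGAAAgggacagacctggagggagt
Idh2, chr7:80115393-80115600, minus strand: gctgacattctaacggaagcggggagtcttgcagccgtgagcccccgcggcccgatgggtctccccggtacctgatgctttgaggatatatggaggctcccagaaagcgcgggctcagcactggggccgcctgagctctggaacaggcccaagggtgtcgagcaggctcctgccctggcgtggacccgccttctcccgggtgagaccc
Fh1, chr1:175625636-175625885, minus strand: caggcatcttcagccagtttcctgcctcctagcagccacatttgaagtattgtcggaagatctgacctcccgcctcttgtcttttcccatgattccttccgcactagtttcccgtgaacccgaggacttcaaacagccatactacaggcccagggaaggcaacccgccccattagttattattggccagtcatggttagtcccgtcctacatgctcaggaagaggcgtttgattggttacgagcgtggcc
Sdhb, chr4:140961021-140961202, plus strand: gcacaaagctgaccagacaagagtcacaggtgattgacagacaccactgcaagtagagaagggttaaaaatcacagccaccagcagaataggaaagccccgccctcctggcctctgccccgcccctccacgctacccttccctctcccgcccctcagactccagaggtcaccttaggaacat
The Acod1 window held a κB-like match 85 bases before the start, an IRF match 63 bases before it and, in the annotated part left out here, TATAAA 28 bases before it. The motifs were chosen after this window had been seen. Across 32851 RefSeq promoters the same length of sequence held TATAAA in 12.4%, GGANNTTCC in 3.59% and AANNGAAA in 21.3%. The searched windows of Idh2, Fh1, Sdhb and Mdh2 held none of the 6 motifs searched, the others being TGANTCA (AP-1, 6.75% of promoters), CCGGAAG (ETS, 6.91%) and GCGC, any 2 bases and GCGC (NRF-1, 4.98%). Of the windows given for Idh1, that at the annotated gene start held none of the 6, and another further downstream held a κB-like match 146 bases before its own start. Suclg2 held an IRF match at 126 and Sdha NRF-1 matches at 98, 55 and 10. A match of letters is a description of the sequence and no evidence of binding. The 35 bases nearest to the start were left out for Acod1 and 42 for Idh2. Acod1 (ENSMUSG00000022126) lies at chromosome 14, 103046977 to 103056573, in 5 exon blocks.

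Total counts per culture ran from 41131209 to 77699206, and the smallest count among the 9 genes was 65 reads, for Acod1 in a control culture. Levels within a gene are given as CPM, read counts scaled to the library size with TMM factors over all 28 cultures, and levels between genes as TPM, in which counts are also divided by gene length. The 7 macrophage markers summed to between 4861 and 25630 CPM in every culture. The lists of T cell, B cell and erythroid markers (3 genes each) summed to at most 0.348, 0.433 and 0.0831 CPM, and the 4 neutrophil markers to at most 4.20 CPM. Of these, Camp, a granule peptide of neutrophil precursors, was higher with VWF at 16 h (2.18 against 0.183 CPM, log2 3.65, SE 0.86, edgeR adjusted p = 0.00929). Camp met the limit for testing only through these VWF cultures, the group where it was high. The 3 stromal markers summed to between 15.2 and 379.9 CPM, so stromal transcripts were present in all cultures; Col1a1 and Col1a2 were not past the test in any comparison, and Dcn, not tested, was at 10.3 CPM with LPS at 16 h against 1.55 CPM in control. Control replicate 5 at 16 h stood apart, with the lowest macrophage marker sum and a mean correlation of 0.910 with its group, as did LPS replicate 4 at 16 h, with 0.946; all others reached at least 0.969. For the 9 genes and the ratios, the values without them are given where a call or a size changed. Other genes were not tested without them. The sum of the 3 dendritic cell markers was higher with both agonists at 3.5 h, at 13.4 to 19.1 CPM with VWF, 21.7 to 27.1 with LPS and 1.13 to 1.79 in control. At 16 h it was 12.8 to 29.6 CPM with LPS, while VWF cultures (0.913 to 2.70) overlapped control (0.596 to 1.70). Most of this was Xcr1, which rose with LPS (22.8 against 0.494 CPM at 3.5 h, 20.2 against 0.507 CPM at 16 h) and was at 12.7 CPM with VWF at 3.5 h, where it was below the limit for testing. Xcr1 met that limit only through its LPS cultures, the group where it was high. The part of these markers in the results was not tested. In bulk cultures, fewer cells of a type and less RNA per cell cannot be told apart. A gene was tested where at least 1 culture of the comparison reached 10 TPM; "past the test" means an adjusted p under 0.05 from edgeR's quasi-likelihood test, and "differentially expressed" also an absolute log2 fold change above 1.

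Acod1 was low in control BMDM and rose with both agonists at both times. In control cultures at 3.5 h it was at 14.4, 14.6, 8.16, 29.9 and 10.3 CPM, and at 16 h at 3.27, 4.09, 2.56, 12.6 and 1.26 CPM. With VWF at 3.5 h it reached 4191, 4069, 4097, 4862 and 5506 CPM, and with LPS 2819, 4035, 4549 and 4205 CPM. The treated cultures all lay far above the control cultures, and those of VWF and LPS overlapped. The log2 fold change against control was 8.21 for VWF (SE 0.40, edgeR adjusted p = 2.55e-08, 296-fold) and 7.99 for LPS (SE 0.41, adjusted p = 2.29e-08, 254-fold). VWF and LPS differed by 0.25 on the log2 scale at 3.5 h (95% interval −0.09 to 0.59, adjusted p = 0.190), which was not past the test.

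At 16 h the agonists separated. Acod1 with VWF was at 289, 298, 417, 249 and 218 CPM, and with LPS at 5942, 5478, 6872 and 3634 CPM. No VWF culture came near the LPS range, yet all 5 remained far above the highest control culture. VWF was 61.1-fold above control (log2 5.93, SE 0.62, edgeR adjusted p = 4.90e-05), LPS 1174-fold (log2 10.20, SE 0.79, adjusted p = 4.32e-06), and VWF was 18.5-fold below LPS (log2 −4.21, SE 0.25, adjusted p = 5.10e-07). Against control, leaving out each culture in turn moved the 16 h values between 5.70 and 6.69 for VWF and between 9.95 and 10.95 for LPS.

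**Figure D1:**
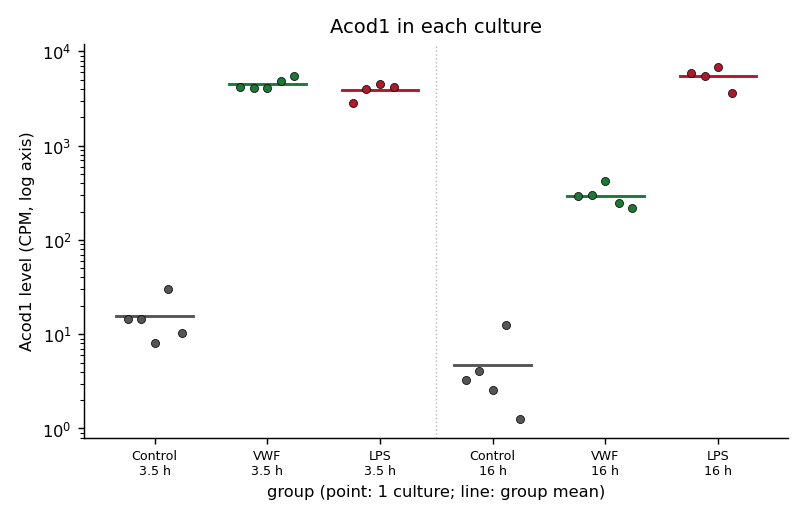
Level of Acod1 (CPM, log axis) in each of the 28 cultures by group; points are cultures and lines group means. Control cultures reach at most 29.9 CPM, treated cultures at 3.5 h lie between 2819 and 5506 CPM, and at 16 h VWF cultures lie between 218 and 417 CPM while LPS cultures lie between 3634 and 6872 CPM.

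From 3.5 h to 16 h, Acod1 fell by 3.93 on the log2 scale with VWF (SE 0.20, edgeR adjusted p = 1.95e-08), a 15.3-fold drop with no overlap between the times. With LPS the change was 0.52 (SE 0.21, adjusted p = 0.0607), and it was past the test without LPS replicate 4 at 16 h (0.68, adjusted p = 0.00410). Control cultures also had less Acod1 at 16 h (log2 −1.71, SE 0.58, adjusted p = 0.0370), a call lost in 6 of 10 fits that each left out 1 culture. It was lost on leaving out replicate 1, 2 or 4 of the 3.5 h control, or replicate 1, 2 or 3 of the 16 h control, with adjusted p values from 0.0567 to 0.101. The VWF effect itself shrank with time by 2.23 (interaction, SE 0.62, adjusted p = 0.00812), and the LPS effect grew by 2.23 (SE 0.70, adjusted p = 0.0146). The group means ran in the order LPS 16 h (5481 ± 1361 CPM, SD, n = 4), VWF 3.5 h (4545 ± 628, n = 5), LPS 3.5 h (3902 ± 753, n = 4), VWF 16 h (294 ± 76.0, n = 5), control 3.5 h (15.5 ± 8.51, n = 5) and control 16 h (4.75 ± 4.49, n = 5). The first 3 groups overlapped, as did the 2 control groups.

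Per length, Acod1 outweighed the 8 cycle genes together wherever it was induced strongly. It made up 88.5% (SD 1.66, n = 5) of the TPM of the 9 genes with VWF at 3.5 h, 85.8% (SD 2.94, n = 4) with LPS at 3.5 h and 89.5% (SD 3.71, n = 4) with LPS at 16 h. With VWF at 16 h its share was 23.8% (SD 5.13, n = 5), and in control cultures it was 2.47% at 3.5 h and 0.617% at 16 h. In control cultures at 3.5 h the most abundant of the 9 was Sdhb (193 ± 13.6 TPM, SD, n = 5), then Idh1 (161 ± 13.9), Sdha (131 ± 8.69), Mdh2 (129 ± 6.48), Idh2 (72.3 ± 8.94), Fh1 (43.5 ± 2.27), Idh3a (28 ± 2.80), Acod1 (19.7 ± 12.6) and Suclg2 (12.3 ± 1.26). Sdha and Mdh2 did not differ beyond their spread, nor did Acod1 from Idh3a or Suclg2.

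The 8 cycle genes showed little change at 3.5 h. With VWF, Acod1 was the 1 of 9 genes past the test, in a comparison where 43.6% of 8200 tested genes were called, and the 8 others had log2 fold changes from −0.22 (Idh1) to 0.06 (Idh3a and Sdha) with adjusted p values from 0.0892 to 0.875. With LPS, Acod1 rose and Idh2 and Idh3a fell, each by 0.26 on the log2 scale (SE 0.10 for both, edgeR adjusted p = 0.0336 and 0.0371), or 1.20-fold; 65.7% of 8190 genes were past the test, 33.9% lower. These 2 calls were weak: Idh2 was past the test in 4 and Idh3a in 1 of 9 fits that left out 1 culture, and neither with the replicate number as a block (adjusted p = 0.139 and 0.0598). The Idh2 call was lost on leaving out control replicate 1 or 5, or LPS replicate 1, 3 or 4, of that time. The Idh3a call was kept on leaving out LPS replicate 1 and lost for every other culture. The median log2 fold change of the 9 was −0.04 with VWF and 0.02 with LPS, beside −0.01 and −0.02 over all tested genes.

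**Figure D2:**
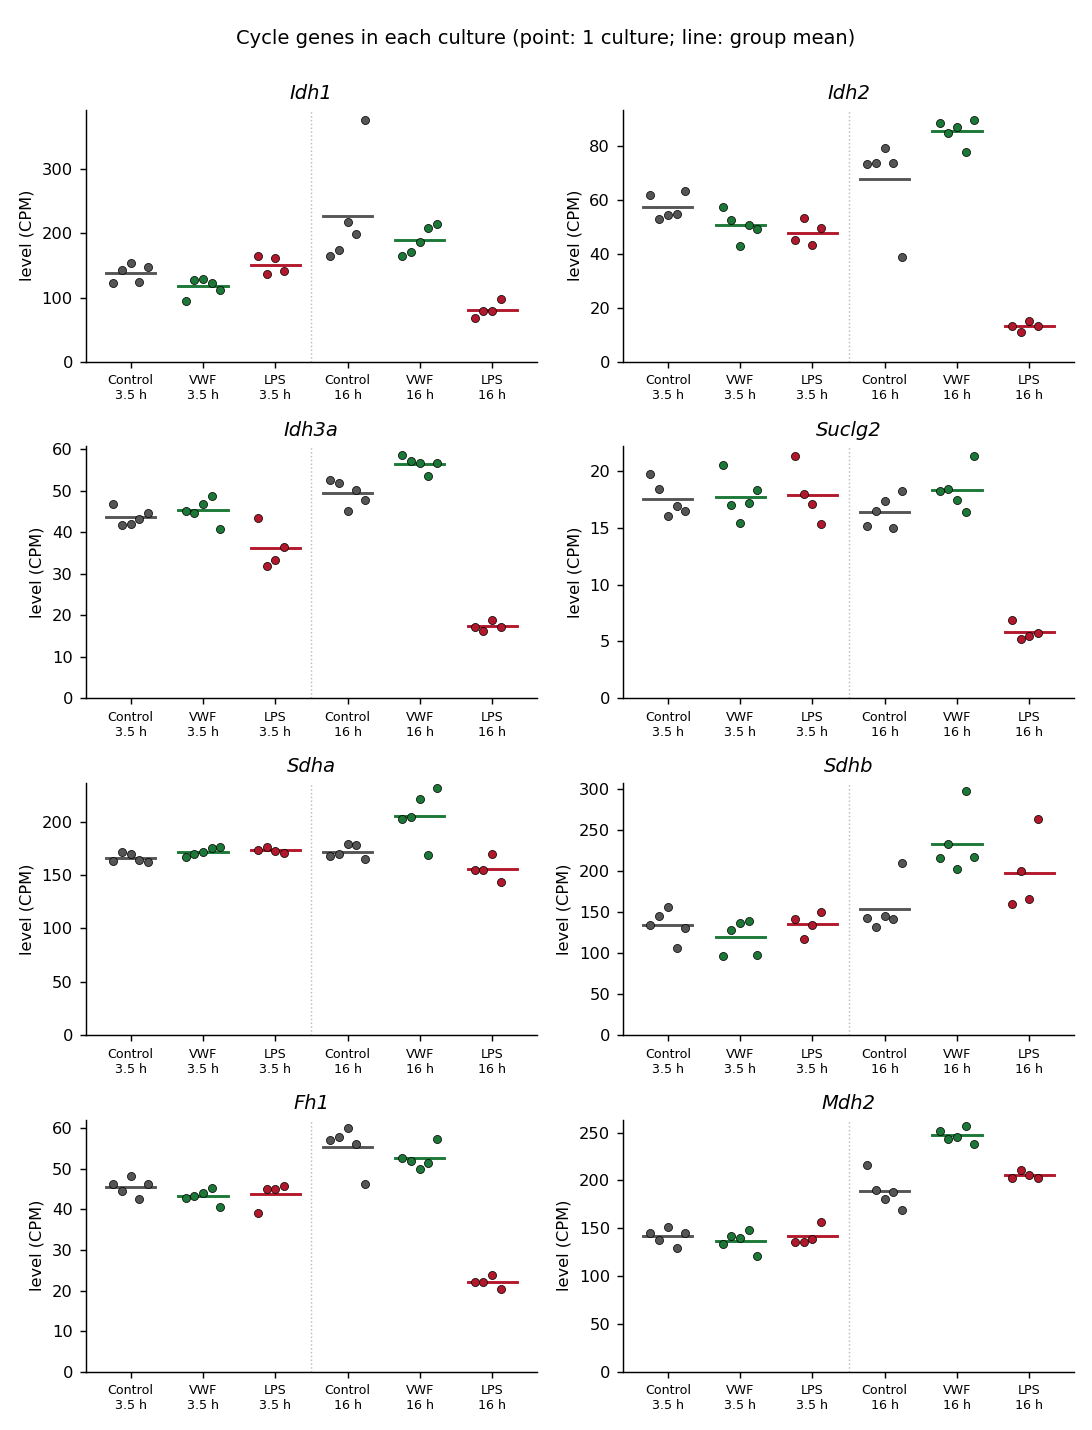
Level (CPM) of each of the 8 cycle genes in the 28 cultures, by group; points are cultures, lines group means, and each panel starts at 0. Idh1, Idh2, Idh3a, Suclg2 and Fh1 lie lowest with LPS at 16 h, Sdhb and Mdh2 lie highest with VWF at 16 h, and replicate 5 of the 16 h control stands apart for Idh1 (378 CPM), Idh2 (39.0 CPM) and Sdhb (210.4 CPM).

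At 16 h, LPS lowered 5 of the 8 cycle genes, at steps before and after SDH, while the genes of SDH itself and Mdh2 were not past the test. Idh2 fell 5.06-fold, Idh3a 2.80-fold, Suclg2 2.77-fold, Idh1 2.76-fold and Fh1 2.47-fold, and these 5 and Acod1 were differentially expressed. In this comparison 53.7% of 7994 genes were past the test (26.4% lower) and 27.6% were differentially expressed, 12.4% lower; for 6 of the 9 genes the groups did not overlap, beside 47.7% of all tested genes. The median log2 fold change of the 9 was −1.31, beside −0.03 over all tested genes and −0.06 over 13 other enzyme genes of the cycle. The 9 were chosen with earlier results of these data known, so this median is a description. All 5 falls stayed past the test in each of 9 fits that left out 1 culture. Counts on mitochondrially encoded genes also moved with this group, at 0.269% to 0.467% of all counts with LPS at 16 h and 0.575% to 0.845% in its controls, and their part in the results was not tested. Without both cultures that stand apart, 7 of the 9 genes were past the test, the addition being Sdhb.

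Idh2, the mitochondrial NADP-dependent enzyme, had the largest fall. Its level was 73.5, 74.0, 79.5, 74.0 and 39.0 CPM in control cultures at 16 h and 13.4, 11.2, 15.0 and 13.2 CPM with LPS. Every LPS culture lay under the lowest control, which was replicate 5, the culture that stands apart. The log2 fold change was −2.34 (SE 0.22, edgeR adjusted p = 1.45e-05), and −2.49 without both cultures that stand apart. Idh1, its cytosolic counterpart, was at 165, 175, 217, 199.6 and 378 CPM in the controls and at 67.5, 78.3, 79.0 and 98.3 CPM with LPS. The control of 378 CPM is again replicate 5, here the highest. Idh1 changed by −1.46 (SE 0.26, adjusted p = 0.00102), and by −1.31 without both cultures.

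Idh3a, of the NAD-dependent enzyme, was at 52.6, 51.9, 45.2, 50.1 and 47.9 CPM in control and at 17.2, 16.2, 19.0 and 17.2 CPM with LPS at 16 h. The spread within each group was small, and the change was −1.48 (SE 0.09, edgeR adjusted p = 8.47e-07). Per length it went from 28.9 to 7.16 TPM, so it met the limit of 10 TPM through its controls. With all cultures kept, its partner subunit genes moved less: Idh3g changed by −0.80 (SE 0.28, edgeR adjusted p = 0.0344) and Idh3b by −0.15, not past the test. The Idh3g groups overlapped, at 33.1 to 80.5 CPM in control (median 72.2) and 23.0 to 43.1 CPM with LPS. The lowest control, replicate 5, and the lowest LPS culture, replicate 4, are those that stand apart. Idh3g was not tested without them.

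Suclg2 went from 15.1, 16.4, 17.3, 15.0 and 18.2 CPM in control to 6.89, 5.19, 5.49 and 5.74 CPM with LPS at 16 h (log2 −1.47, SE 0.13, edgeR adjusted p = 1.15e-05). It was a low gene, at 10.4 TPM in the 16 h controls and 2.63 TPM with LPS, and entered the comparison only through its control cultures; with no filter on low values the change was −1.38 (adjusted p = 1.62e-05). Of its 100-base transcript windows, 8.604% also occur in the pseudogene Gm15163, so reads may be shared. Suclg1, the common α subunit, and Sucla2, the ATP-forming β subunit, had values of −0.19 and −0.06 and were not past the test. Suclg1 was at 41.2 to 73.0 CPM in control (median 70.5) and at 51.1 to 58.8 CPM with LPS. The lowest control, replicate 5, and the lowest LPS culture, replicate 4, are those that stand apart. Neither gene was tested without them, so a fall of Suclg1 is not excluded.

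Fh1, the fumarase gene, stood at 57.1, 57.7, 60.1, 56.1 and 46.1 CPM in control and at 22.0, 22.0, 23.8 and 20.3 CPM with LPS at 16 h. The groups were well apart, and the change was −1.31 (SE 0.10, edgeR adjusted p = 4.17e-06).

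The SDH genes did not follow. Sdha was at 168, 170.0, 179, 178 and 165 CPM in control and at 155, 155, 169 and 144 CPM with LPS at 16 h, a log2 difference of −0.12 (95% interval −0.30 to 0.06, edgeR adjusted p = 0.245). Sdhb was at 143, 132, 145, 141 and 210.4 CPM in control and at 160.3, 200.1, 166 and 264 CPM with LPS. The highest control, replicate 5, and the highest LPS culture, replicate 4, are those that stand apart. The Sdhb difference of 0.38 (SE 0.19, adjusted p = 0.125) was past the test without control replicate 5 (0.52, adjusted p = 0.0209) or without both (0.34, adjusted p = 0.00391), and not without LPS replicate 4 alone (0.20, adjusted p = 0.328). Sdhc and Sdhd, which anchor SDH in the membrane, had values of −0.04 and 0.19 and were not past the test. Mdh2 was at 203, 211, 206 and 203 CPM with LPS and 216, 190.2, 181, 188 and 169 CPM in control (log2 0.15, SE 0.09, adjusted p = 0.199).

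These values are relative to the TMM factors, which were 0.729 to 0.845 in LPS cultures and 0.944 to 1.187 in the others. With scaling by library size alone, the median of all tested genes moved to −0.59 for LPS and −0.09 for VWF at 16 h, and to −0.55 and −0.22 at 3.5 h. On that scale the 5 falls with LPS at 16 h were larger, from −1.87 (Fh1) to −2.92 (Idh2). Sdha was then past the test at −0.68 and Mdh2 turned to −0.42, both close to the shifted median of −0.59.

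**Figure D3:**
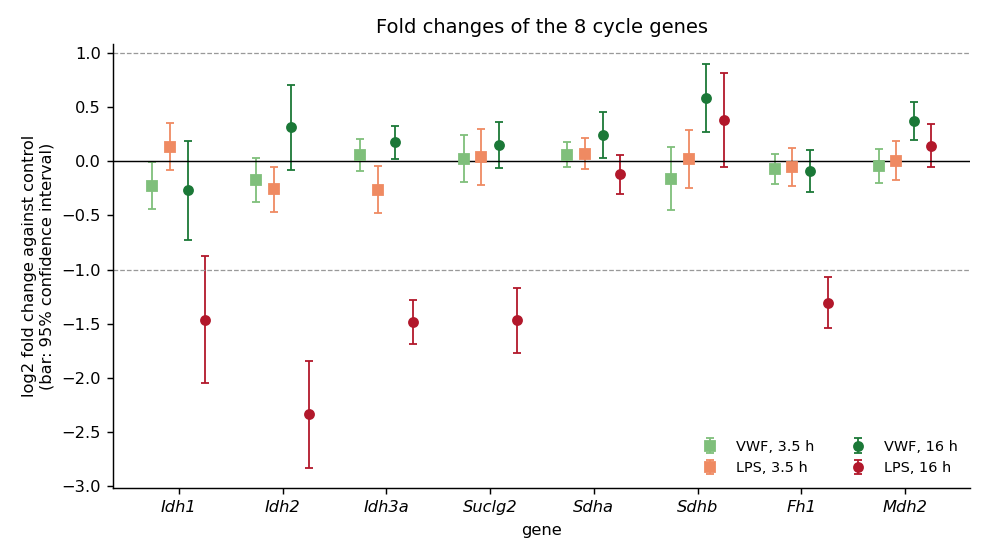
Log2 fold change against control of the 8 cycle genes for each agonist and time; bars are 95% confidence intervals from the edgeR fit, not adjusted over genes, and dashed lines mark an absolute value of 1. At 3.5 h (squares) all values lie between −0.26 and 0.14, and at 16 h (circles) the 5 genes Idh1, Idh2, Idh3a, Suclg2 and Fh1 lie between −1.31 and −2.34 with LPS and between −0.27 and 0.32 with VWF.

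VWF at 16 h gave another picture: Acod1, Sdhb and Mdh2 rose and none of the 9 was past the test in the lower direction. In this comparison 27.7% of 7798 genes were past the test, 13.1% in the higher direction, and 24.6% had groups that did not overlap, beside 3 of the 9 here. Sdhb was at 216, 234, 203, 298 and 217 CPM with VWF, all above 4 of the 5 controls and overlapping only with replicate 5 (log2 0.59, SE 0.14, edgeR adjusted p = 0.0101, 1.50-fold; 0.71 without that control). Mdh2 was at 252, 244, 245, 257 and 238 CPM, above every control (log2 0.37, SE 0.08, adjusted p = 0.00549, 1.30-fold). The Mdh2 call was lost with library size scaling (0.31, adjusted p = 0.0710), while Sdhb kept it (0.54).

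Idh2 with VWF at 16 h was at 88.7, 85.0, 87.2, 77.9 and 89.7 CPM. Its difference from control was 0.32 (SE 0.18, edgeR adjusted p = 0.233), and without control replicate 5 it was 0.17 and past the test (adjusted p = 0.0477). Idh3a cultures lay between 53.6 and 58.6 CPM, above all controls, but the difference of 0.18 (SE 0.07, adjusted p = 0.0860) was not past the test. Sdha lay between 168 and 232 CPM (0.24, SE 0.09, adjusted p = 0.0826), and was past the test without VWF replicate 4 (0.32, adjusted p = 0.0108). Idh1 (−0.27, adjusted p = 0.408), Suclg2 (0.15, adjusted p = 0.302) and Fh1 (−0.09, adjusted p = 0.536) were not past the test, and the Idh1 value was −0.02 without control replicate 5. The median of the 9 was 0.24, beside −0.03 over all tested genes. The macrophage markers moved with this group too: their sum was 18400 to 25630 CPM with VWF at 16 h and 4861 to 16148 CPM in its controls, and the part of this in the results was not tested.

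Set against each other at 16 h, VWF and LPS differed for 8 of the 9 genes, in a comparison where 60.5% of 7574 genes were past the test. Compared with LPS, VWF cultures had 6.55-fold more Idh2 (log2 2.71, SE 0.11, edgeR adjusted p = 4.81e-08), 3.28-fold more Idh3a, 3.18-fold more Suclg2, 2.41-fold more Fh1 and 2.37-fold more Idh1. The groups did not overlap for 7 of the 9, beside 51.4% of tested genes. Sdha (0.41, SE 0.11, adjusted p = 0.00797) and Mdh2 (0.28, SE 0.06, adjusted p = 0.00410) were also higher with VWF. Sdhb differed by 0.25 (SE 0.17, adjusted p = 0.216), was past the test with the replicate number as a block (0.29, adjusted p = 0.00645), and also without LPS replicate 4 (0.42, adjusted p = 0.0206). The comparisons of VWF and of LPS with control share their control cultures, and this one does not use them. At 3.5 h the same comparison called 2 of 9, beside 50.2% of 7500 genes: Idh1 was lower with VWF (−0.34, SE 0.10, adjusted p = 0.0199) and Idh3a higher (0.35, SE 0.10, adjusted p = 0.0187). The Idh1 call was lost without LPS replicates 1 or 3 and the Idh3a call without VWF replicate 1 or LPS replicate 3, and under library size scaling Idh1 was at −0.04, where the median of all genes was 0.32.

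Between the times, 8 of the 9 genes changed with VWF, where 67.9% of 7927 genes were past the test. Acod1 fell, and Sdhb (log2 0.97, SE 0.14, edgeR adjusted p = 6.65e-05), Mdh2 (0.86, SE 0.07, adjusted p = 8.63e-07), Idh2 (0.77), Idh1 (0.70), Idh3a (0.33), Fh1 (0.30) and Sdha (0.27) rose, while Suclg2 was at 0.06. In control cultures Idh1 (0.72), Mdh2 (0.42) and Fh1 (0.28) rose with time as well, with 41.1% of 8333 genes past the test. The Idh1 and Fh1 calls were lost without Control replicate 4 at 3.5 h (adjusted p = 0.0512 and 0.0510). Without Control replicate 5 at 16 h, Idh1 rose by 0.46 (adjusted p = 0.00316), and Idh2 (0.39, adjusted p = 0.00121) and Idh3a (0.20, adjusted p = 0.0360) were also past the test. With LPS, Idh2 (−1.83), Idh3a (−1.04), Fh1 (−0.96) and Idh1 (−0.88) fell from 3.5 h to 16 h, and Sdhb (0.57) and Mdh2 (0.56) rose, with 60.9% of 6987 genes past the test. Idh3a met the limit of 10 TPM there only through the 3.5 h cultures. Suclg2 stayed under 10 TPM in both LPS groups and was not tested. The Sdhb call with LPS was lost without LPS replicate 2 at 3.5 h (0.49, adjusted p = 0.0518). The agonists' effects themselves changed with time for 4 genes with VWF (32.6% of 8660 genes) and 6 with LPS (48.8% of 8748 genes). With VWF these were Acod1, Mdh2 (0.45, SE 0.10, adjusted p = 0.00139), Sdhb (0.77, SE 0.21, adjusted p = 0.00609) and Idh2 (0.53, SE 0.20, adjusted p = 0.0460). The Idh2 call was lost in 13 of 20 fits that left out 1 culture. With LPS they were Acod1, Fh1 (−1.24, SE 0.11, adjusted p = 1.14e-07), Idh2 (−2.07), Idh3a (−1.21), Suclg2 (−1.50) and Idh1 (−1.59), and Sdhb was added without Control replicate 5 at 16 h (0.51, adjusted p = 0.0439).

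Of the other 14 enzyme genes of the cycle, 13 were tested at 16 h (Ogdhl was too low). LPS lowered 4 of the 13 and raised none, beside 26.4% of all tested genes lower. Mdh1, the cytosolic malate dehydrogenase, fell by 0.97 (SE 0.18, edgeR adjusted p = 0.00115), Idh3g by 0.80 and Aco1, the cytosolic aconitase, by 0.64 (SE 0.22, adjusted p = 0.0326); the fourth, Dlst, changed by −0.24. Citrate synthase (Cs, 0.12), Ogdh (0.21) and Dld (0.17) were not past the test. VWF at 16 h raised Idh3b (0.26, SE 0.06, adjusted p = 0.0109) and lowered Mdh1 (−0.46, SE 0.12, adjusted p = 0.0167). The medians of the 13 were −0.06 with LPS and 0.08 with VWF. Between the agonists at 16 h, 5 of the 13 were higher with VWF, beside 29.5% of all tested genes, led by Idh3g (0.82), Aco1 (0.77) and Mdh1 (0.57), and 1, Dld, was higher with LPS (−0.22).

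At 3.5 h, Dld, a shared subunit of the α-ketoglutarate and pyruvate dehydrogenase complexes, rose with VWF (0.62, SE 0.07, edgeR adjusted p = 1.12e-05) and with LPS (0.60, SE 0.08, adjusted p = 3.49e-05). Dlst, which encodes another subunit of the α-ketoglutarate complex, rose by 0.19 with VWF and by 0.18 with LPS. LPS at 3.5 h also raised Sucla2 (0.34) and Mdh1 (0.32) and lowered Aco1 (−0.56, SE 0.13, adjusted p = 0.00367) and Ogdh (−0.35). VWF cultures had more Aco1 (0.50) and less Mdh1 (−0.38) than LPS cultures at this time.

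**Figure D4:**
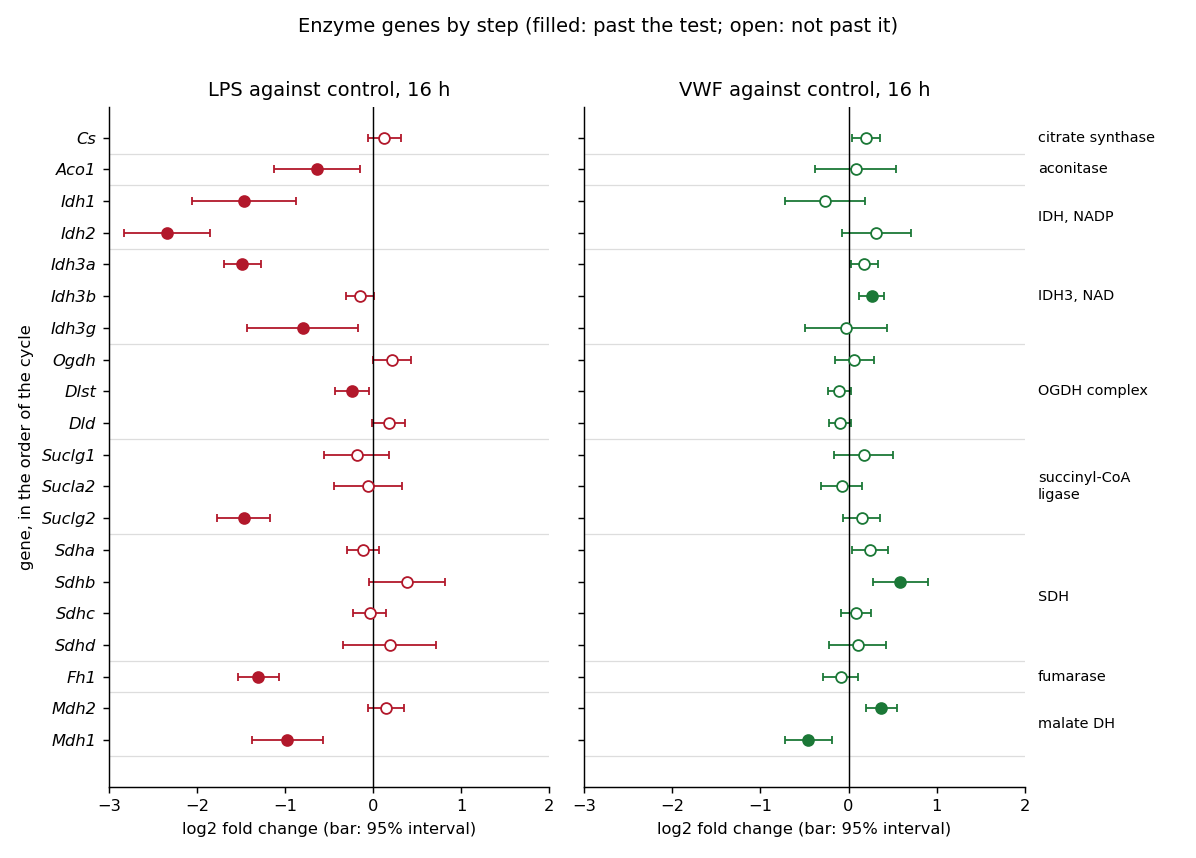
Log2 fold change against control at 16 h of cycle enzyme genes, in the order of the cycle, for LPS (left) and VWF (right); bars are 95% intervals, filled points are past the test and open points are not. With LPS, Idh1, Idh2, Idh3a, Idh3g, Suclg2, Fh1, Mdh1, Aco1 and Dlst are filled and left of 0, while Cs and the 4 SDH genes are open; with VWF, Sdhb, Mdh2, Idh3b and Mdh1 are filled.

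Of the 4 genes for SDH assembly, 2 were tested. Sdhaf2, which helps attach flavin to Sdha, rose with LPS at 16 h from 42.8 ± 1.59 (SD, n = 5) to 75.9 ± 7.51 CPM (n = 4; log2 0.85, SE 0.09, edgeR adjusted p = 3.13e-05), and was lower with VWF than with LPS (−0.68).

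The list of citrate and dicarboxylate carriers, citrate lyase and the itaconate breakdown enzyme held 6 genes. Slc13a3, a dicarboxylate importer of the plasma membrane that also carries itaconate, was at 1.08 to 2.58 CPM in control cultures at 16 h, 24.8 to 57.1 CPM with VWF and 12.7 to 15.4 CPM with LPS. It rose with VWF by 2.11 at 3.5 h (SE 0.15, edgeR adjusted p = 4.42e-07) and by 4.41 at 16 h (SE 0.31, adjusted p = 3.76e-06), and at both times was higher with VWF than with LPS (1.83 and 1.72). It entered these comparisons only through its VWF cultures. With no filter on low values, VWF exceeded control by 2.16 (adjusted p = 6.12e-10) and 4.47 (adjusted p = 6.87e-07) and LPS by 1.78 (adjusted p = 7.34e-09) and 1.71 (adjusted p = 2.35e-05) at 3.5 h and 16 h. It did not reach 10 TPM in the comparisons of LPS with control; with no filter it was 0.35 higher with LPS at 3.5 h (adjusted p = 0.201) and 2.83 higher at 16 h (adjusted p = 1.48e-06). Slc25a10, the mitochondrial dicarboxylate carrier, rose in all 4 comparisons with control, by 1.18 and 0.99 with VWF and by 0.49 and 0.51 with LPS at 3.5 h and 16 h. Slc25a1, the citrate carrier, rose with LPS (0.60 and 0.55) and was lower with VWF than with LPS at both times (−0.37 and −0.39). Slc25a10 was higher with VWF than with LPS (0.71 and 0.53). Acly, the citrate lyase, fell with LPS at 3.5 h (−0.39, SE 0.15, adjusted p = 0.0384).

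Of 11 genes that refill the cycle, 8 were tested (7 for LPS against control at 16 h and for VWF against LPS at 3.5 h). Ass1, the argininosuccinate synthase that leads to fumarate, rose with each agonist: at 16 h it was at 14.3 ± 6.41 CPM in control (SD, n = 5), 427 ± 95.3 with VWF (n = 5; log2 4.88, SE 0.38, edgeR adjusted p = 6.10e-06) and 369.5 ± 71.2 with LPS (n = 4; 4.72, SE 0.38, adjusted p = 5.23e-06). At 3.5 h the changes were 2.62 and 2.65. Of its transcript windows, 26.94% are shared with Gm5424, so part of these reads may belong there. Glutamate dehydrogenase (Glud1) fell with LPS at 16 h by 0.85 (SE 0.09, adjusted p = 2.19e-05) and the mitochondrial aspartate aminotransferase Got2 by 0.73, while its cytosolic counterpart Got1 rose by 0.49. With VWF at 16 h, Me1, the cytosolic malic enzyme, rose by 0.73. At 3.5 h, VWF raised Got2 (0.24) and lowered Got1 (−0.96), Me2 (−0.32) and Glud1 (−0.20); LPS raised Got2 (0.27) and lowered Got1 (−0.92) and Me2 (−0.47). Between the agonists, Glud1 was lower with VWF at 3.5 h (−0.20). At 16 h, Glud1 (0.75) and Got2 (0.65) were higher with VWF and Got1 (−0.55) and Asl (−0.39) higher with LPS.

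The levels of paired enzymes were also compared as ratios within each culture. The ratio of Idh1 to Idh2, in TPM, was 4.71 to 6.95 with LPS at 16 h (median 5.72), 1.74 to 2.50 with VWF (median 2.00) and 2.09 to 9.05 in control (median 2.52), where 9.05 is replicate 5. The ratio of Suclg2 to Sucla2 was 0.0559 to 0.0961 with LPS, 0.188 to 0.262 with VWF and 0.163 to 0.223 in control. For Suclg2 to Sucla2 the LPS cultures lay below all others of that time, by 1.41 on the log2 scale against control and by 1.63 against VWF. Both differences had an exact two-sided permutation p of 0.0159, the smallest that 5 against 4 cultures allow, and an adjusted p of 0.0635 over 12 ratio tests. Idh1 to Idh2 differed by 1.47 between LPS and VWF (exact permutation p = 0.0159, adjusted 0.0635) and by 0.90 between LPS and control (exact permutation p = 0.0794, adjusted 0.116). Without Control replicate 5, the latter was 1.29 (exact permutation test, adjusted p = 0.0857). No ratio test passed an adjusted p of 0.05. In these cultures Sdhb made up 22.7% of the TPM of the 8 cycle genes in control at 16 h, 29.2% with VWF and 38.2% with LPS, and Idh2 8.95%, 9.34% and 2.25%. The summed TPM of the 8 differed too, with means of 876, 989 and 472 in the same order. Sdhb itself was at 198, 288 and 179 TPM, so its larger share with LPS was not a higher level.

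**Figure D5:**
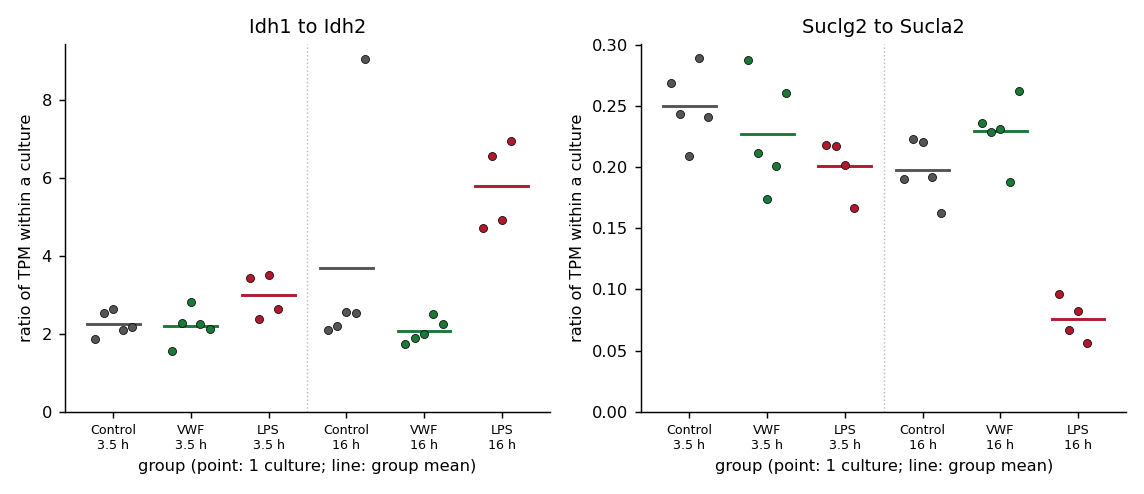
Ratio of TPM within each culture for Idh1 to Idh2 (left) and Suclg2 to Sucla2 (right), by group; points are cultures and lines group means. With LPS at 16 h the first ratio lies between 4.71 and 6.95 and the second between 0.0559 and 0.0961, and replicate 5 of the 16 h control reaches 9.05 in the first.

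The genes with the most similar pattern to each of the 9, by Pearson correlation of log2 CPM over the 28 cultures among 8867 genes, are given as a description, since the cultures share their groups. For Acod1 they were Ifi205, N4bp1 and Slfn8 (r = 0.97 each). For Idh2 they were Paics (0.99), Ybx1 and Fh1 (0.97), and for Fh1 they were Paics, Ybx1 and Idh2 (0.97). Idh3a was closest to Rangap1 (0.97), Pgm2l1 and Paics (0.96), and Suclg2 to Nap1l1, Dock1 (0.96) and Oat (0.95). Idh1 was closest to Acadm (0.95), Cd79b and Hadh (0.94), and Mdh2 to Chchd3 (0.95), Aldh3b1 and Faf1 (0.94). Sdhb was closest to Mydgf (0.96), Mpv17l2 and Pkig (0.94), and Sdha had the weakest neighbours, Gsta3 (0.82), Ola1 (0.80) and Canx (0.79).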

How the data were processed

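Per the submitters' notes, reads were aligned by STAR to GRCm38. The table deposited by the authors holds raw counts of reads on each gene, neither normalized nor filtered, and its annotation and strand setting were not stated. Groups came from the labels. Exon lengths from GENCODE M21 gave TPM, and a comparison kept genes at 10 TPM in at least 1 culture, after the study's methods. Comparisons were fitted with the quasi-likelihood test of edgeR 4.0.16 in R 4.3.3 (TMM factors, robust dispersion) on the groups compared, with Benjamini-Hochberg adjustment and a threshold of 0.05, checked on simulated data. SE was the log2 fold change divided by the square root of F, and intervals used the fit's degrees of freedom. Paired ratios had exact permutation tests.

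The members and lists were chosen with earlier results of these data known. Beside the 9 genes, the text names, per list and comparison of treatments, up to 3 genes in each direction with the largest change past the test, and the 3 genes closest to each member. Dlst with LPS and cycle genes that were not past the test were named after their values were seen; a few list and marker genes are not reported here. Replicate numbers come from the labels. Same-numbered cultures of VWF and LPS at 16 h deviated together in all 4 pairs (r from 0.16 to 0.78). No other comparison reached 0.1 in every pair. The stromal marker sum did follow the number: replicate 1 was the highest in every group, at 165.9 to 379.9 CPM. Whether same-numbered cultures share a source was not tested, and the main tests used no block. Alternatives were DESeq2 1.42.0, median-of-ratios factors, library size scaling, filterByExpr, no filter, all groups in 1 fit, a replicate block and leaving out each culture; leaving out both cultures that stand apart was chosen with the data already seen. Promoter windows are RefSeq's, and 8 of the 9 genes matched.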

Additional observations from a re-analysis of the deposited data

Results flagged for a closer look

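Among 54 groups of 4 or 5 cultures (9 genes in 6 groups), 7 held a culture whose gap to the nearest other exceeded Dixon's 95% critical value, and chance gives about 1 in 20. Of these, 4 were Control replicate 5 at 16 h: Idh1 at 378 CPM, the highest of its group, Sdhb at 210.4 CPM, also the highest, and Idh2 at 39.0 CPM and Fh1 at 46.1 CPM, the lowest. This is the culture with the lowest macrophage marker sum. The others were Acod1 at 12.6 CPM in Control replicate 4 at 16 h, Fh1 at 39.2 CPM in LPS replicate 1 at 3.5 h and Mdh2 at 157 CPM in LPS replicate 4 at 3.5 h.

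The effect of an agonist differed between 3.5 h and 16 h, by edgeR's interaction test, for 10 of 18 gene and agonist pairs. Over all tested genes the share was 32.6% of 8660 with VWF and 48.8% of 8748 with LPS. With VWF the log2 change of the effect was −2.23 for Acod1 (adjusted p = 0.00812), 0.53 for Idh2 (0.0460), 0.77 for Sdhb (0.00609) and 0.45 for Mdh2 (0.00139). The Idh2 call was kept in only 7 of 20 fits that left out 1 culture. With LPS it was 2.23 for Acod1 (adjusted p = 0.0146), −1.59 for Idh1 (1.80e-04), −2.07 for Idh2 (1.04e-06), −1.21 for Idh3a (1.12e-06), −1.50 for Suclg2 (1.13e-06) and −1.24 for Fh1 (1.14e-07).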

How the results depend on the processing

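The rises of Acod1 against control and the 5 falls with LPS at 16 h kept their direction and their side of the threshold in every alternative run; a sign change with neither value past the test was counted as no change. Library size scaling, which moves the median of all genes, turned the log2 value of Sdha with VWF at 3.5 h to −0.15, those with LPS at 3.5 h of Idh1 to −0.40, Suclg2 −0.49, Sdha −0.47, Sdhb −0.51 and Mdh2 −0.53, Mdh2 with LPS at 16 h to −0.42, and Mdh2 between VWF and LPS at 3.5 h to 0.28. With it, members past the test went from 1 to 7 for VWF at 3.5 h, from 3 to 9 for LPS at 3.5 h and from 2 to 6 between the agonists at 3.5 h, and members differentially expressed between VWF times from 1 to 2. Over all genes this scaling called 4372 of 8200 for VWF at 3.5 h (3141 lower) and 6317 of 8190 for LPS at 3.5 h (5137 lower). Between the agonists at 3.5 h it called 4690 of 7500 (3816 higher with VWF). For VWF at 16 h, DESeq2 and filterByExpr gave 5 in place of 3. Over all genes they called 2613 of 7798 and 3291 of 14376, beside 2163 of 7798 in the main fit. For LPS at 3.5 h, filterByExpr and no filter gave 1. Between the agonists at 3.5 h, no filter and all groups in 1 fit gave 1. Between control times, no filter gave 2 in place of 4, and 0 in place of 1 differentially expressed. With the replicate block, members past the test were 2 for VWF at 3.5 h, 1 for LPS at 3.5 h and 1 between the agonists at 3.5 h. Between VWF and LPS at 16 h, where same-numbered cultures deviated together, the block added Sdhb (0.29) and changed no other call. Leaving out 1 culture gave 1 to 2 members past the test for VWF at 3.5 h, 1 to 2 for LPS at 3.5 h, 0 to 2 between the agonists at 3.5 h and 1 to 6 between control times, and 0 to 1 and 1 to 2 differentially expressed between control and VWF times. Over all genes, filterByExpr gave 1.35 to 1.70 times the main count past the test and 1.65 to 2.10 times that differentially expressed, and no filter 1.13 to 1.64 and 1.57 to 2.35 times. In 5 against 4 cultures the exact ratio tests cannot go below p = 0.0159, so a miss there says little.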
